A study of Mus musculus with 25 samples.

Results

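The 9 RNAs described here are long noncoding RNAs known to stay largely in the nucleus: Malat1, Meg3, Snhg11, Rian, Mirg, Miat, Neat1, Peg13 and Snhg14. They were chosen by name from the 24411 genes of each deposited table, and all 9 were found in all 3 tables. The choice was made with the values of these experiments in view, so the differences between the groups and the correlations of the 9 RNAs are given as descriptions, without a p-value.

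Nuclei that carried the neuronal antigen NeuN and the DNA dye Hoechst were sorted from the hippocampus of male C57BL/6 mice, and their RNA was sequenced in 25 libraries. The aging experiment held 3 young (3 months) and 2 aged (18 months) libraries of wild-type genotype. The overexpression experiment held 5 control and 7 Ftl1 OE libraries from young mice, whose hippocampi received lentivirus with GFP or with Ftl1 and GFP behind the neuronal synapsin-1 promoter. The knockdown experiment held 4 control and 4 Ftl1 KD libraries from aged mice, injected with lentivirus for a short hairpin RNA against luciferase or against Ftl1. Virus was delivered to CA1 and the dentate gyrus, while the whole hippocampus was dissected and nuclei were sorted on NeuN, not on the virus. The authors give 3 young and 2 aged mice for the aging experiment, but nothing in the labels ties the libraries to separate mice. Each SD and SE thus measures the spread between libraries.

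The genes of neurons were present in every library, and the labels were checked on Ftl1 itself, the ferritin light chain gene. In the knockdown experiment Ftl1 ran from 24.2 to 56.2 normalized counts in controls and from 106.4 to 139.6 in the KD-labelled libraries, against the label. In the overexpression experiment it ran from 4737 to 7663 in the OE-labelled libraries and from 4580 to 28309 in controls, so the overexpression does not show in these counts either. Since the measured Ftl1 went against the knockdown label and did not show the overexpression label, these groups are called OE-labelled and KD-labelled. Libraries held 7969282 to 9537872 reads in the aging experiment, 9943996 to 17034325 in the overexpression experiment and 48902 to 358560 in the knockdown experiment. Values are normalized counts, reads divided by the library's size factor, and each experiment was normalized on its own.

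As background, RNAs of this kind act where they are made: they scaffold nuclear bodies, recruit splicing and chromatin factors, or mark the activity of an imprinted domain, a chromosomal stretch read from the maternal or the paternal copy alone. Malat1 gathers in nuclear speckles, which store splicing factors. Neat1 is the scaffold of paraspeckles, bodies that retain RNA and RNA-binding proteins. Miat, also called Gomafu, forms its own foci in neuronal nuclei and binds splicing factors. Meg3, Rian and Mirg are read from the maternal copy of the Dlk1-Dio3 domain, whereas Peg13 and Snhg14 are read from the paternal copy of theirs. Snhg11 and Snhg14 are named as host genes of small nucleolar RNAs.

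In the mm10 (GRCm38) annotation, GENCODE M21, Malat1 (chr19:5795690-5802672) and Neat1 (chr19:5824708-5845478) were 1-exon lincRNA genes on the minus strand that lie next to each other. Meg3 (chr12:109541001-109571726), Rian (chr12:109603940-109661716) and Mirg (chr12:109729764-109749460) followed each other on the plus strand, with Dlk1 before Meg3, the antisense gene Rtl1 between Meg3 and Rian, and Dio3 after Mirg. Miat (chr5:112213228-112229395, minus strand) was a lincRNA. Peg13 (chr15:72805600-72810324, minus strand) was a sense intronic RNA inside Trappc9. Snhg14 (chr7:59307924-59975759, minus strand) overlapped the 3′ end of the oppositely oriented Ube3a. Snhg11 (chr2:158375638-158386145, plus strand) carried the annotation protein_coding, although its symbol is that of a noncoding host gene. Peg13 and Trappc9 lie on the same strand, so their reads may not be fully separated with any kit. The methods describe a library kit that does not keep the strand and the labels a kit that does. Reads of Snhg14 and Ube3a, on opposite strands, may therefore not be fully separated either.

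The 3′ ends of Malat1 and of the long Neat1 transcript are shown first because both kinds of library described for these samples capture RNA through its A-rich stretches. As background, both RNAs are cut by RNase P and end in an encoded A-rich tract that folds with U-rich motifs into a triple helix, in place of an added poly(A) tail. Capitals mark the pair of U-rich motifs, TTTCTTTT and TTTTGCTTTT, and the A-rich tract, read 5′ to 3′ on the minus strand of GRCm38, from chr19:5795982-5796111 for Malat1-201 and from chr19:5824708-5824837 for Neat1-201.

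Malat1: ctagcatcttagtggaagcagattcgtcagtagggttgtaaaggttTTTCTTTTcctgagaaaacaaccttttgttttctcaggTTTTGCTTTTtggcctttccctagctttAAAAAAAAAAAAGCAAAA

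Neat1: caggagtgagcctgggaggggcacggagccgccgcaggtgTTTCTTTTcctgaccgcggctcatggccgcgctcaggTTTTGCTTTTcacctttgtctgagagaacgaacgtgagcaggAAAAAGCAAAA

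Both windows held the same pair of motifs. The run of A was 12 bases in Malat1 and 5 bases in Neat1, whose window is the last 130 of 20771 bases. In the annotated transcript Malat1-201, 292 further bases followed the window. Within the longest annotated transcripts of the others, the longest run of A was 17 bases in Snhg14, 16 in Meg3, 15 in Rian, 8 in Snhg11, 5 in Mirg and in Peg13, and 4 in Miat.

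Miat is known for copies of the motif TACTAAC, a form of the variable sequence at which a branch point is recognized during splicing. The motif occurred 6 times in the 9163 bases of Miat-205, where its base composition gives 0.32, once in Neat1 and in none of the longest transcripts of the other 7 RNAs. A stretch with 3 of the 6 lies in the last exon, on the minus strand at chr5:112217301-112217460, with the motif in capitals.

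Miat: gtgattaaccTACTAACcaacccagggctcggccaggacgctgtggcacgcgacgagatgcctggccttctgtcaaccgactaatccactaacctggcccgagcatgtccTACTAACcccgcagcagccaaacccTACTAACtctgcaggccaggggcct

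Promoters are shown for Meg3, Snhg11 and Miat, whose levels ran together across the overexpression libraries and which were all lower in the KD-labelled libraries. Each runs from 250 bases before to 50 bases after a RefSeq start (build GRCm38.p6). Capitals mark matches on either strand to 6 motifs. They are the TATA box (TATAAA), the CCAAT box, the GC box (GGGCGG), the cyclic AMP response element (TGACGTCA), the E-box CACGTG and, as the antioxidant response element core, TGACNNNGC. The Meg3 promoter lies at chr12:109540746-109541045 (plus strand), that of Snhg11 at chr2:158375463-158375762 (plus strand) and that of Miat at chr5:112228899-112229198 (minus strand).

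Meg3: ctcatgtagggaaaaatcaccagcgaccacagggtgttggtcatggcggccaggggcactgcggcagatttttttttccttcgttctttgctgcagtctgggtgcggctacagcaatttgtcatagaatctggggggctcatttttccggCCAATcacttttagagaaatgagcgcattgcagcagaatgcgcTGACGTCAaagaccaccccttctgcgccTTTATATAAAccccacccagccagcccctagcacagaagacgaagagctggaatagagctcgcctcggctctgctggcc

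Snhg11: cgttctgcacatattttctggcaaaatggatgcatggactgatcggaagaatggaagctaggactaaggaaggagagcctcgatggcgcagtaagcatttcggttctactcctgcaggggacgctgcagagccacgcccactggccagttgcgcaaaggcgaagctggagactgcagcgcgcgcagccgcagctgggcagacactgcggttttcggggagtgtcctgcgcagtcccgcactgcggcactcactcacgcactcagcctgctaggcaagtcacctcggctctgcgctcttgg

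Miat: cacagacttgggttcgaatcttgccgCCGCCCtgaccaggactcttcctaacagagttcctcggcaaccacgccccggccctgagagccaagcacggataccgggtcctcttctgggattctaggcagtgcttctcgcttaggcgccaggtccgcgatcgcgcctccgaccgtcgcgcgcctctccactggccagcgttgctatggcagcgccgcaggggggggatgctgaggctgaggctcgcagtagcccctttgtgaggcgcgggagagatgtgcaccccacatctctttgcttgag

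The printed Meg3 promoter held 2 overlapping matches to TATAAA, at −29 and −25 from the start, CCAAT at −100 and TGACGTCA at −57. A further Meg3 promoter entry, at chr12:109545148-109545447 (plus strand, GC content 50.3%), held none of the 6 motifs. The Miat promoter held GGGCGG once, as its reverse complement. The Snhg11 promoter, and also that of Malat1, held none of the 6. Among 32851 promoters of the same length, 13.6% held TATAAA, 37.4% CCAAT, 35.7% GGGCGG, 1.79% TGACGTCA, 7.15% CACGTG and 12.4% TGACNNNGC. The GC content was 53.7% for the printed Meg3 promoter, 64.3% for Miat and 47.0% for Malat1, against a median of 52.7%.

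Of the 9 RNAs, Malat1 had the most reads in each experiment and in 22 of the 25 libraries. Meg3 was above it in aged replicate 2 (182332 against 167917 reads), and Snhg11 in overexpression control replicate 5 (29717 against 27771) and in KD-labelled replicate 5 (65 against 53). Malat1 took 1.2804% to 2.24% of all reads in the aging libraries, 0.138% to 1.77% in the overexpression libraries and 0.0885% to 0.429% in the knockdown libraries. By reads summed over the libraries, Malat1 had rank 2 of 24411 genes in the aging and in the overexpression experiment and rank 5 in the knockdown experiment. In the aging experiment Meg3 had rank 3 and Snhg11 rank 4. All 9 RNAs together took 2.73% to 5.12% of the reads in the aging, 0.373% to 2.72% in the overexpression and 0.252% to 1.03% in the knockdown experiment.

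**Figure D1:**
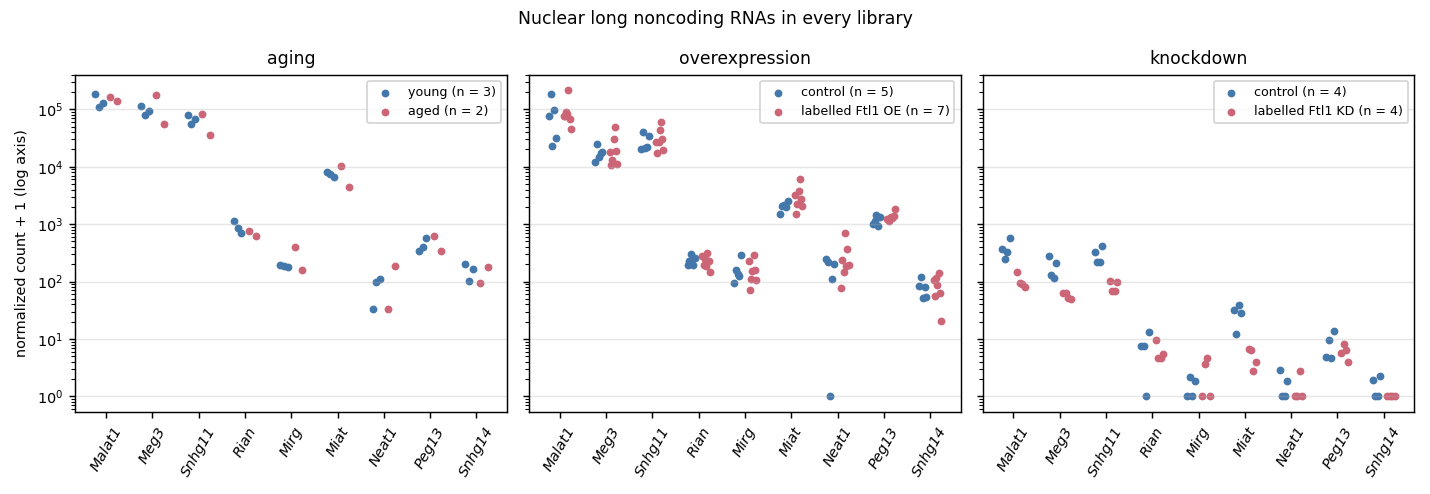
Normalized count plus 1 (log axis) of the 9 RNAs in each of the 25 libraries, 1 point per library, by experiment and group. Malat1, Meg3 and Snhg11 are the highest in every experiment, and in the knockdown experiment their controls (blue) lie above the KD-labelled libraries (red).

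To compare the RNAs with each other, reads were expressed per kilobase of annotated exon and scaled to the library's total reads (RPKM). In young libraries (n = 3) the mean RPKM was 2425 ± 711 (SD) for Malat1, 946 ± 180 for Snhg11 and 627 ± 119 for Meg3. Miat followed with 94.6 ± 10.1, Peg13 with 10.96 ± 2.86, Rian with 5.88 ± 1.53 and Mirg with 3.04 ± 0.209. Snhg14 (0.71 ± 0.248) and Neat1 (0.458 ± 0.239) were the lowest and their ranges overlapped, whereas each of the other 7 neighbouring pairs in this order was separate. By this measure Malat1 was thus 5300 times Neat1. The 31 to 126 reads of Neat1 were divided by all 20771 bases, whichever of its transcripts they came from. Capture may also differ with the encoded run of A, 12 bases in Malat1 and 5 in Neat1, which was not tested. Among the 3 RNAs of the Dlk1-Dio3 domain, the level per kilobase fell in their order along the chromosome, from Meg3 through Rian to Mirg.

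The order was less distinct in the other controls. In the overexpression controls (n = 5), Malat1 (RPKM 923 ± 789) overlapped Snhg11 (238 ± 95.3), Meg3 was at 70.3 ± 25.3, and Peg13 (17.6 ± 1.68) now stood beside Miat (15.97 ± 2.63), within its range. There, Mirg (1.55 ± 0.65) stood above Rian (0.921 ± 0.088), with ranges that overlapped, the other way round from the young libraries. In the knockdown controls (n = 4), Malat1 (441 ± 167) and Snhg11 (285 ± 108) overlapped and Meg3 was at 84.9 ± 49.4. With the longest annotated transcript in place of all exons, Rian moved above Peg13 in the young libraries, and the order of the first 4 RNAs did not change.

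Many small RNAs lie inside these genes. Mirg held 14 annotated miRNA genes, Rian 4 and Meg3 2, and there were 208 small nucleolar RNA genes in Snhg14, 13 in Rian and 2 in Snhg11. The tables list 25 of them, and all 25 had 0 reads in all 25 libraries. As the libraries capture RNA through A-rich stretches, this does not show whether the small RNAs were present. The values below are the counts under the host symbols. To show what the hosts encode, mature miRNAs are printed from RefSeq with the seed (bases 2 to 8) in capitals. The first pair, from Mirg, share their seed, and the next is a Mirg miRNA known from dendrites. The last pair come from Rian and Meg3.

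mmu-miR-453: aGGUUGCCucauagugagcuugca

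mmu-miR-496a-5p: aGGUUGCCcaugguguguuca

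mmu-miR-134-5p: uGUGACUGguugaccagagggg

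mmu-miR-341-3p: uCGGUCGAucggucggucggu

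mmu-miR-770-5p: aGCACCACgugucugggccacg

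All lie on the plus strand of chromosome 12 in GRCm38. Among the 35 mature miRNAs of the 3 hosts, no other seed was shared.

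In the knockdown experiment, the abundant nuclear RNAs were lower in the KD-labelled libraries than in controls. Malat1 was 3.75-fold lower, Snhg11 3.57-fold, Meg3 3.21-fold and Miat 6.75-fold, and for each of them every KD-labelled library lay below every control. The 4 were the only ones of the 9 that reached a mean of 10 normalized counts, the limit for testing at this depth. Limma, fitted to log2(normalized count + 1) over 1460 genes, called all 4 lower at a Benjamini-Hochberg adjusted p of 0.05. Of all tested genes, 200 (13.7%) were called lower and 154 (10.5%) higher, and 11.9% lay below the controls without overlap. Since the RNAs were chosen on this contrast, no support is drawn from the count.

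Malat1 had 369, 250, 322 and 572 normalized counts in control replicates 1, 2, 3 and 5. It had 143, 93.8, 89.3 and 77.9 in KD-labelled replicates 1, 3, 4 and 5. The highest KD-labelled library was thus well below the lowest control. The reads behind these values numbered 172 to 1368 in controls and 49 to 149 in the KD-labelled libraries. The means were 378 ± 138 and 101 ± 28.7 (SD, n = 4 and 4), and the log2 fold change was −1.87 (SE 0.23).

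Snhg11 had 323, 222, 221 and 416 normalized counts in controls and 102, 66.7, 67.4 and 95.5 in the KD-labelled libraries. Control replicate 5 was the highest library for Snhg11, as it was for Malat1. The log2 fold change was −1.80 (SE 0.23), from 295 ± 93.4 to 82.8 ± 18.4 (SD, n = 4 and 4). Snhg11 was thus nearly as far apart as Malat1.

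Meg3, the first transcript of the maternal domain, had 273, 128, 116 and 206 normalized counts in controls and 63.3, 62.2, 51.0 and 48.5 in the KD-labelled libraries. Here control replicate 1 was the highest, and the lowest control was control replicate 3 with 62 reads. The log2 fold change was −1.59 (SE 0.25), from 181 ± 73.1 to 56.3 ± 7.60 (SD, n = 4 and 4). The KD-labelled libraries lay close together, with a spread of 13.5% of their mean against 40.4% in controls.

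Miat, whose transcript carries the TACTAAC repeats printed above, had 31.1, 11.3, 37.4 and 27.6 normalized counts in controls and 5.75, 5.41, 1.82 and 2.94 in the KD-labelled libraries. These rest on 20 to 66 reads in controls and on 1 to 6 reads in the other group, so the fold is imprecise. The log2 fold change was −2.45 (SE 0.47), and −1.77 with a pseudocount of 5, where that of Malat1 was −1.82 and that of Snhg11 −1.75. Miat passed the limit on the mean only through its controls (26.9 ± 11.2, against 3.98 ± 1.91).

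**Figure D2:**
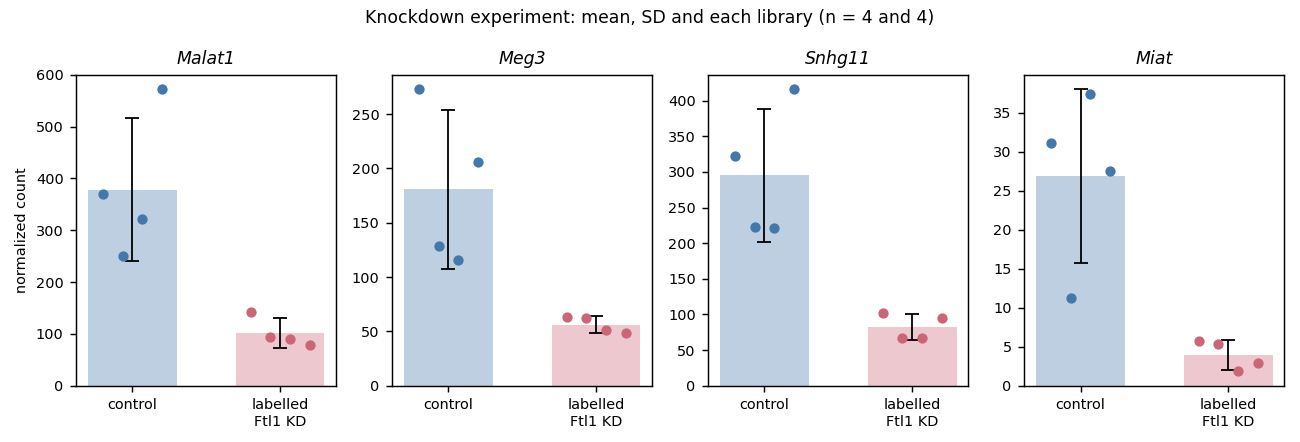
Normalized counts of the 4 RNAs tested in the knockdown experiment. Bars are means, error bars SD (n = 4 and 4) and points libraries; all 4 KD-labelled libraries lie below all 4 controls in each panel, with the widest ratio of means, on the fewest reads, for Miat (26.9 against 3.98).

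The other 5 RNAs were too shallow to compare. Rian had 7, 16, 0 and 29 reads in controls and 9, 4, 2 and 3 in the KD-labelled libraries. Peg13 had 4, 21, 2 and 30 reads in controls and 5, 8, 3 and 2 in the others. In normalized counts both overlapped between the groups, with means of 6.30 and 5.07 for Rian and of 7.13 and 5.10 for Peg13. Mirg and Snhg14 had 0 to 3 reads per library and Neat1 0 to 2. Snhg14 had 0 reads in each KD-labelled library, which allows up to 3 reads per library and differs little from the 4 reads of the 4 controls together.

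Other features of the libraries moved with the same contrast, and their part in it was not tested. Depth was one of them, with 68092 to 358560 reads (median 211020) in controls and 48902 to 97104 (median 78358.5) in the KD-labelled libraries. Rn45s, the precursor of ribosomal RNA, took 31.9% to 55.3% of the reads in controls and 30.3% to 34.5% in the KD-labelled libraries. With reads scaled to the total without Rn45s, limma called 4 of the 9 RNAs lower. The messenger RNAs of cytosolic ribosomal proteins took 0.574% to 0.819% of the reads in controls and 1.21% to 1.27% in the other group. Of 43 such genes tested, 39 had a positive log2 fold change and 3 were called higher, with a list median of 0.45 against −0.01 for all genes. Fewer nuclei of a kind and less RNA per nucleus cannot be told apart in such bulk libraries.

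Markers of cell types also differed. The summed level of 7 oligodendrocyte markers ran from 36.8 to 93.6 normalized counts in controls and from 10.9 to 21.6 in the KD-labelled libraries, where Mal was at 0. Mbp, a myelin protein, fell by 1.87 on the log2 scale (limma, adjusted p = 0.000433) and Cnp, a myelin enzyme, fell by 1.88 (limma, adjusted p = 0.0484). Mbp and Cnp passed the limit on the mean only through their controls, with KD-labelled means of 9.61 and 4.71. No other of the 7 was tested. The 4 dentate granule markers summed to 35.6 to 81.5 in controls and 13.2 to 29.8 in the others. Their one tested member, C1ql2, a synaptic protein, fell by 1.49 (adjusted p = 0.0013). The 6 markers of newborn neurons summed to 26.2 to 38.7 and 78.3 to 105.8, with Sox4 at 0 in the KD-labelled libraries. Stmn1, which regulates microtubules, rose by 1.52 on the log2 scale (adjusted p = 9.47e-05). Stmn1 was the only 1 of the 6 tested and made up most of the sum, with 23.4 to 31.1 normalized counts in controls and 68.1 to 97.0 in the KD-labelled libraries.

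The 8 neuron markers summed to 200 to 295 in controls and 222 to 238 in the KD-labelled libraries. Within them Gad1, the GABA-synthesizing enzyme of interneurons, rose by 1.49 (limma, adjusted p = 0.0038) and Slc17a7, a glutamate transporter of excitatory neurons, fell by 1.35 (adjusted p = 0.0327). Astrocyte markers (6 genes) summed to 28.1 to 60.1 and 59.5 to 69.2, and Slc1a3, their glutamate transporter, rose by 2.05 (adjusted p = 0.000541), from a mean of 5.56 to 25.3 normalized counts. Slc1a3 passed the limit on the mean only through the KD-labelled libraries. Of the 2 astrocyte markers tested, 1 had a positive and 1 a negative log2 fold change. Markers of oligodendrocyte precursors (4 genes) summed to 2.09 to 16.9 and 16.3 to 29.1, with Pdgfra at 0 in controls. The 8 microglial markers were near 0 in both groups (5.66 to 17.7 and 1.47 to 11.5), with Cx3cr1 at 0 in controls and C1qc, Csf1r, P2ry12 and Tmem119 at 0 in the others. The 4 endothelial markers were at 0 in controls and at most 2.94 in the KD-labelled libraries.

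Summed over the 1787 other annotated long noncoding genes of the table, normalized counts were also lower. They ran from 203 to 286 in the KD-labelled libraries and from 298 to 450.2 in controls. As a share of all reads, the same genes overlapped between the groups, with 0.232% to 0.307% in the KD-labelled libraries and 0.206% to 0.368% in controls. Of these genes, 4 reached the depth for testing, and limma called 2 higher and 2 lower. With no filter on low counts, 374 were tested, and limma called 4 lower and 0 higher. Kcnq1ot1, an imprinted nuclear antisense RNA, fell by 1.91 on the log2 scale (SE 0.67, adjusted p = 0.0359), from 16.8 ± 8.15 to 4.82 ± 3.42 (SD, n = 4 and 4). Mir124a-1hg, the host of a neuronal miRNA, fell by 1.54 (SE 0.39, adjusted p = 0.00515). In contrast, 2900097C17Rik rose by 1.02 (SE 0.32, adjusted p = 0.0193), and so did Cct6a by 1.15 (SE 0.34, adjusted p = 0.0142). Cct6a carries the annotation processed_transcript, although its symbol is that of a chaperonin subunit. These calls depended on single libraries. Limma called 2 genes, 1 higher and 1 lower, without control replicate 2, without control replicate 5 and without KD-labelled replicate 5. Kcnq1ot1 and Mir124a-1hg passed the limit on the mean only through their controls, with KD-labelled means of 4.82 and 9.49. Cct6a passed it only through the KD-labelled libraries, with a control mean of 9.68.

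Proteins of the nuclear bodies that these RNAs belong to were mostly below the limit for testing. Of 19 speckle genes 6 were tested, and limma called 2 lower and 0 higher. These were Srrm2, the large scaffold of speckles, which fell by 1.61 (SE 0.42, adjusted p = 0.00648), and Sf3b2, a subunit of the spliceosome, which fell by 1.284 (SE 0.34, adjusted p = 0.00677). Srrm2 passed the limit on the mean only through its controls (mean 25.1, against 8.77). The list median of the tested speckle genes was −0.86, against −0.01 for all genes. Of 17 paraspeckle genes 5 were tested and 1, Hnrnpk, which binds RNA, was called higher (0.83, SE 0.30, adjusted p = 0.0441), with a list median of 0.44. Of 20 genes for nuclear RNA decay and export in the table, 1 was tested and 0 were called by limma, with 1 at an unadjusted p of 0.05. Of 5 tested protein-coding genes from imprinted domains, 1 was called higher, Nnat (1.43, SE 0.35, adjusted p = 0.00412), which encodes neuronatin.

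With age, the 9 RNAs did not differ beyond the spread of the libraries. Each overlapped between young and aged, and their log2 fold changes (aged minus young) ran from −0.36 for Rian to 0.45 for Mirg, with a median of 0.08 against −0.03 for all 13712 genes tested. Limma, edgeR and DESeq2 each called 0 of the 9, and 0 had an unadjusted p of 0.05 or less. Over all genes, limma and edgeR called 0 (0%) and DESeq2 1.01%, 7.94% had an unadjusted p of 0.05 or less in limma, and 24.7% did not overlap between the groups.

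Malat1 had 185454, 108867 and 131058 normalized counts in young replicates 1 to 3 and 165956 and 142067 in aged replicates 2 and 3. Both aged values lay inside the young range, and the log2 fold change was 0.15 (SE 0.54). Neat1, the neighbour of Malat1 on chromosome 19, had 32.1, 96.5 and 112 in young and 32.6 and 186 in aged libraries (log2 fold change 0.15, SE 0.86). The pair of aged libraries thus spanned a wider range than the 3 young ones.

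The aged libraries were apart from each other for the maternal domain as well. Meg3 had 113019, 80252 and 91792 in young and 180203 and 54950 in aged libraries, so that aged replicate 2 was the highest and aged replicate 3 the lowest of the 5. Snhg11 (79348, 55488 and 67782 in young, 81792 and 36146 in aged) and Miat (8057, 7427 and 6640, against 10224 and 4484) had the same order. So did Mirg, with 197, 186 and 176 in young and 406 and 158 in aged libraries. For these 4 RNAs the sign of the difference depended on which aged library was left out. The log2 fold change of Meg3 was 0.94 without aged replicate 3 and −0.78 without aged replicate 2, that of Snhg11 0.29 and −0.89, that of Miat 0.48 and −0.71 and that of Mirg 1.12 and −0.23. Neat1 went the other way, with −1.09 without aged replicate 3 and 1.39 without aged replicate 2.

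Rian, which lies between Meg3 and Mirg, followed them only in part, with aged replicate 3 the lowest library but aged replicate 2 inside the young range. It had 1143, 845 and 708 normalized counts in young and 747 and 627 in aged libraries (log2 fold change −0.36, SE 0.31). Peg13 had 343, 398 and 565 in young and 624 and 338 in aged libraries, so that aged replicate 2 was the highest and aged replicate 3 the lowest, as for Meg3. Snhg14 had 203, 99.7 and 162 in young and 91.9 and 180 in aged libraries. Their log2 fold changes were 0.11 (SE 0.38) and −0.21 (SE 0.55). These too turned with the aged library left out, to 0.55 without aged replicate 3 and −0.33 without aged replicate 2 for Peg13, and to −0.69 and 0.27 for Snhg14. Malat1 and Rian kept their sign without either aged library, and Malat1 was at −0.02 without young replicate 2.

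In the overexpression experiment the groups overlapped for each of the 9 RNAs as well. The log2 fold changes (OE-labelled minus control) ran from −0.07 for Rian to 1.75 for Neat1, with a median of 0.16 against 0.10 for all 14099 genes tested. Limma, edgeR and DESeq2 called 0 of the 9, and in limma 0 had an unadjusted p of 0.05 or less, with 1 in DESeq2. Over all genes, limma and edgeR called 0 (0%) and DESeq2 0.426%, 7.26% had an unadjusted p of 0.05 or less in limma, and 0.582% did not overlap.

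**Figure D3:**
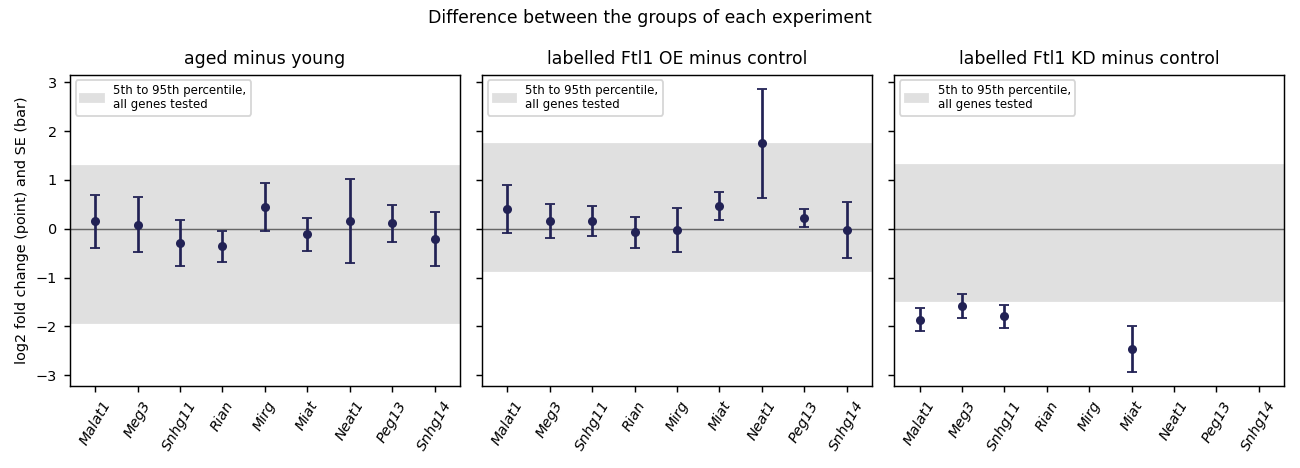
Log2 fold change (points) and SE (bars) of the 9 RNAs in the 3 comparisons, with the range from the 5th to the 95th percentile of all genes tested in grey; the 5 RNAs without a point in the knockdown panel were not tested. Values lie between −0.36 and 0.45 with age and between −1.59 and −2.45 in the KD-labelled libraries, and Neat1 in the OE-labelled libraries has the widest bar.

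Neat1 had 249, 215, 0, 108 and 204 normalized counts in control replicates 1 to 5, and from 77.7 to 688 with a median of 193 in the 7 OE-labelled libraries. The 0 stands in control replicate 3, which held 12553244 reads, so that up to 3 reads are allowed there. Its log2 fold change of 1.75 (SE 1.12) became 0.24 without that library. Control replicate 3 also held the highest Ftl1 of the 12 libraries, the fewest genes with reads (12281, against 13455 to 15602 in the others), the largest share of ribosomal protein messenger RNA (1.70%, against 0.708% to 1.38%) and the lowest Malat1.

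Malat1 had 76579, 185236, 23359, 95490.5 and 32204 normalized counts in controls, and from 44897 to 218074 with a median of 76849 in the OE-labelled libraries. Its highest and lowest library were 9.34-fold apart, mostly within the groups. The log2 fold change was 0.40 (SE 0.50). Snhg14 was 7.08-fold apart between its highest and lowest library (19.8 to 140), with a log2 fold change of −0.02 (SE 0.58).

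Meg3 had 11933, 24691, 14886, 17048 and 17725 in controls and from 10820 to 49421, median 17988, in the OE-labelled libraries. Snhg11 had 20108, 40579, 21020, 21905 and 34460 in controls and from 17653 to 58935, median 27045, in the others. Miat had 1482, 2086, 2157, 2020 and 2536 in controls and from 1515 to 6037, median 2770. In all 3, OE-labelled replicate 5 was the highest of the 12 libraries. Their log2 fold changes were 0.16 (SE 0.35), 0.16 (SE 0.31) and 0.47 (SE 0.28).

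Peg13 and Rian were the steadiest. Peg13 had from 918 to 1465 normalized counts in controls and from 1123 to 1850 in the OE-labelled libraries (log2 fold change 0.22, SE 0.18), and its 12 libraries were 2.02-fold apart. Rian, from 191 to 299 and from 146 to 312, had a log2 fold change of −0.07 (SE 0.32) and was 2.14-fold apart. Mirg was 4.03-fold apart, about as far as Miat with 4.07-fold. Mirg, from 92.6 to 286 and from 71.0 to 284, had a log2 fold change of −0.03 (SE 0.45).

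Across the 12 overexpression libraries, some of the RNAs ran together. Pearson's r of log2(normalized count + 1) was positive for 29 of the 36 pairs, at least 0.7 for 7 of them, and 0.33 on average. The highest were between Meg3 and Snhg11 (r = 0.94, Spearman's rho = 0.96), Meg3 and Miat (0.88 and 0.80), Snhg11 and Miat (0.84 and 0.81) and Mirg and Miat (0.78 and 0.80). Mirg also ran with Snhg11 (0.75) and with Meg3 (0.72), and Malat1 with Snhg14 (0.72). As the pairs were in view when the RNAs were chosen, and as the 12 points share their depth and scaling, these are descriptions. The share of all gene pairs with such values is not given here, so the count is not read as a trait of these RNAs.

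**Figure D4:**
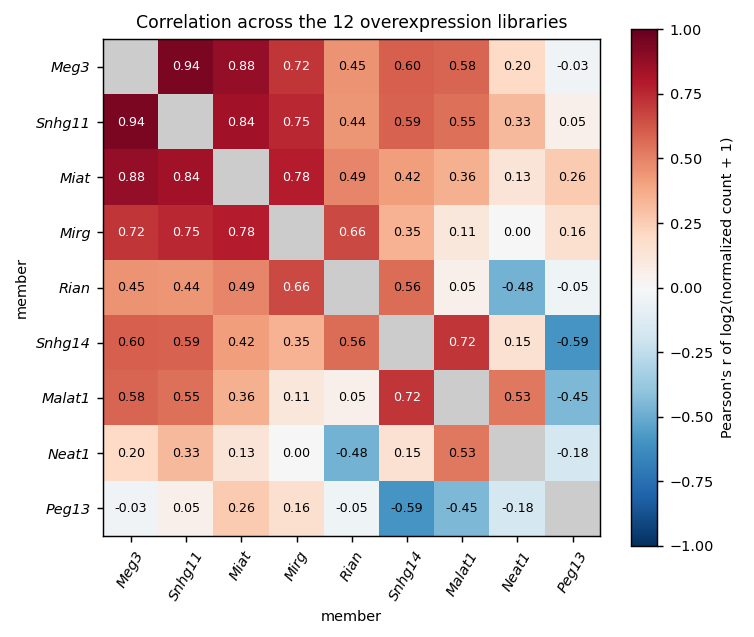
Pearson's r between the log2(normalized count + 1) of each pair of the 9 RNAs across the 12 overexpression libraries. Meg3, Snhg11, Miat and Mirg form a block with r from 0.72 to 0.94, whereas Peg13 and Neat1 have low or negative values with most others.

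Genes in the same place did not always run together. Meg3 and Rian, neighbours in one domain, had r = 0.45, and Rian and Mirg 0.66, whereas Meg3 and Snhg11 lie on different chromosomes. Malat1 and Neat1, neighbours on chromosome 19, had r = 0.53 but rho = 0.09, and r was −0.05 without control replicate 3. Malat1 had 0.58 with Meg3, 0.55 with Snhg11 and 0.36 with Miat, and the last fell to −0.05 without OE-labelled replicate 5. Negative values were found for Peg13 with Snhg14 (−0.59) and with Malat1 (−0.45), and for Rian with Neat1 (−0.48).

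For the pair of Meg3 and Snhg11, r was 0.91 to 0.96 with each library left out in turn, 0.87 without the 2 libraries farthest from the median of Meg3, 0.98 within the 7 OE-labelled libraries and 0.94 with the group means removed. Meg3 and Miat had r = 0.60 without the 2 farthest libraries, and Snhg11 and Miat 0.59. Beside these values, genes detected per library had r = −0.37 with Meg3, −0.31 with Snhg11, −0.36 with Miat, −0.64 with Mirg and −0.75 with Rian. The share of ribosomal protein messenger RNA had r = −0.72 with Malat1 and −0.78 with Neat1, with weaker rho of −0.44 and −0.48. Control replicate 3 had the largest such share, the lowest Malat1 and Neat1 at 0. The part of these features in the pairs was not tested.

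**Figure D5:**
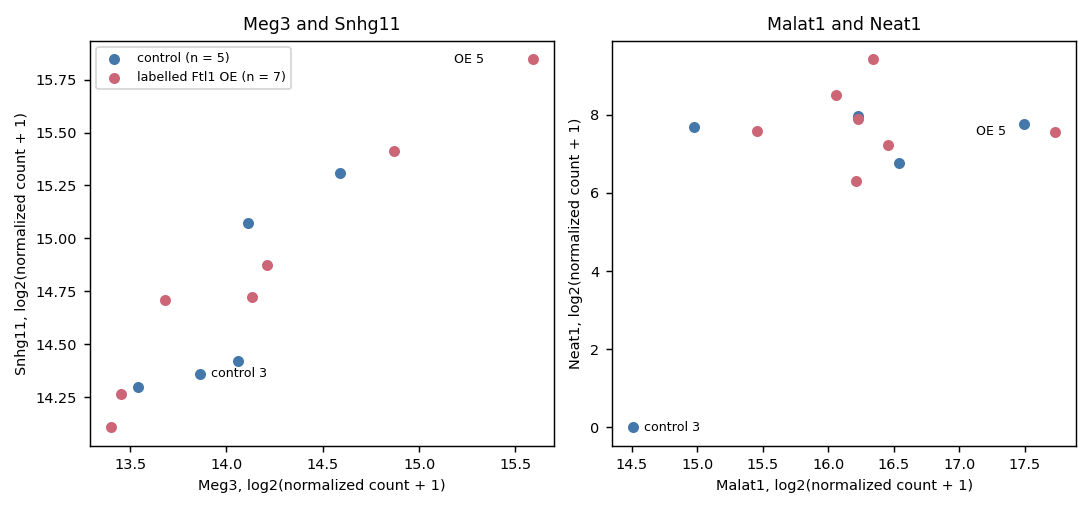
Log2(normalized count + 1) of Snhg11 against Meg3 (left) and of Neat1 against Malat1 (right) in the 12 overexpression libraries. On the left the libraries lie along a line (r = 0.94) that ends in OE-labelled replicate 5, and on the right control replicate 3, with Neat1 at 0, lies apart.

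Among the 10467 other genes whose mean reached 100 normalized counts in this experiment, the 2 most like each RNA were found by Pearson's r over the 12 libraries. Those of Malat1 were Rbm39, a splicing factor (r = 0.97), and Tbk1, a kinase (0.97). Those of Meg3 were A330023F24Rik, another noncoding transcript (0.94), and Mtmr14 (0.93), and A330023F24Rik was also the closest to Miat (0.91), followed by Nav2 (0.90). Snhg11 was closest to Unc80, a part of a sodium leak channel (0.91), and to the RNA helicase Ddx17 (0.91). Neat1 was closest to Kcnj10, a potassium channel of glia (0.98), and Pgm3 (0.98), with lower rho of 0.83 and 0.64. Rian was closest to Rngtt (0.92) and Ypel2 (0.87), Mirg to Ebf4 (0.89) and Zfp692 (0.86), Peg13 to Arhgap39 (0.87) and Zfp687 (0.85), and Snhg14 to Sbno1 (0.93) and Ccdc176 (0.91).

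The wider classes around the 9 RNAs were tested in these 2 experiments as well. Of the other annotated long noncoding genes, 451 were tested with age and limma called 0, with 21 at an unadjusted p of 0.05 and 2 called by DESeq2. In the overexpression experiment 403 were tested and limma called 0, with 20 at an unadjusted p of 0.05 and 0 called by DESeq2. The smallest p with age was that of Tug1, a nuclear noncoding RNA, at 1722 ± 101 in young (SD, n = 3) and 797 ± 141 in aged libraries (n = 2), a log2 fold change of −1.12 (SE 0.27, limma adjusted p = 0.441). Their median log2 fold change was −0.05 with age and 0.13 in the OE-labelled libraries, against −0.03 and 0.10 for all genes. In the same 2 experiments limma called 0 of 17 paraspeckle, 0 of 19 speckle and 0 of 20 nuclear RNA decay and export genes, with 0, 1 and 3 of them at an unadjusted p of 0.05 with age and 0, 2 and 1 in the OE-labelled libraries.

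The protein-coding neighbours of the 9 RNAs were also tested. Of 14 such genes in the tables, 13 were tested with age and 12 in the overexpression experiment, and limma called 0 in either. Rtl1, which lies antisense between Meg3 and Rian, had a log2 fold change of −0.23 with age and −0.63 in the OE-labelled libraries (limma adjusted p = 0.868 and 0.818). Trappc9, around Peg13, had 0.26 and −0.15 (adjusted p = 0.863 and 0.874), and Ube3a, which Snhg14 overlaps, −0.14 and 0.11 (adjusted p = 0.928 and 0.940). In the knockdown experiment, Snrpn, the neighbour of Snhg14, was the only one tested, with 50.2 normalized counts in controls and 61.9 in the KD-labelled libraries (log2 fold change 0.34, SE 0.28, adjusted p = 0.393).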

How the data were processed

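Sorted neuronal nuclei were profiled by RNA-seq, with young and aged libraries (3 and 2), control and Ftl1 OE libraries (5 and 7) and control and Ftl1 KD libraries (4 and 4) grouped by the sample labels. The authors used STAR (mm10 transcriptome), RSEM and DESeq2 for alignment, counting and normalization, and the annotation release is not given in the sources used here. The 3 deposited tables hold, per library, normalized counts, a signal in which each read count is divided by the library's size factor. Dividing by the smallest step returned whole reads for 100% of values (tolerance 0.0001). The tables also hold the authors' own log2 fold changes, test statistic (a score), p-value and adjusted p-value columns, which were not used. In the overexpression table the authors' mean column, deposited as a signal, differed from the mean of the libraries for 278 genes and was not used.

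Genes whose mean reached 10 normalized counts were compared with limma 3.58.1 (R 4.3.3) on log2(normalized count + 1), with a variance trend, the group as the only term and Benjamini-Hochberg adjustment. The call rule was adjusted p at 0.05, combined in the aging experiment with a log2 fold change at least 0.5 in size. The script was tested on simulated data. edgeR 4.0.16 and DESeq2 1.42.0 were run on the recovered reads, and other alternatives were pseudocounts of 0.5 and 5, no filter, a filter at a mean of 100, TMM, median centring, totals without Rn45s, leaving out each library, and the replicate block. No pair of libraries of a group was within counting error of each other (lowest chi-square per degree of freedom 1.40). At 48902 to 358560 reads, the depth of the knockdown libraries limits tests to abundant genes.

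Of 24411 symbols, 23334 matched GENCODE M21 (GRCm38, which is mm10), and levels per kilobase used the union of annotated exons. Sequences of transcripts came from GENCODE M21, those of promoters and miRNAs from RefSeq (GRCm38.p6), where 7 of the 9 RNAs had a promoter entry. The 9 RNAs and the gene lists were chosen with earlier results of these data known. Beside the 9 RNAs, the genes named were up to 2 per list and direction, and up to 3 other long noncoding genes, with the smallest adjusted p among those called, the nearest protein-coding genes, and the 2 genes most correlated with each RNA. Tug1, A330023F24Rik as a noncoding transcript, and the choice of printed sequences were singled out after their values were seen.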

Additional observations from a re-analysis of the deposited data

Results flagged for a closer look

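In groups of 4 to 10 libraries, a library was marked where its gap to the next one exceeded Dixon's 95% critical value. This was the case for 2 of 25 groups examined, and chance marks about 1 in 20. Malat1 in OE-labelled replicate 5 had 218074 normalized counts, where the next highest of the 7 libraries had 89931. Peg13 in OE-labelled replicate 7 had 1850 normalized counts, against 1399 in the next library. Both RNAs overlapped between the groups with and without these libraries in the fit, and the log2 fold change of Malat1 was 0.40 with all libraries and between 0.04 and 0.79 with each library left out.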

How the results depend on the processing

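The 4 RNAs called in the knockdown experiment (Malat1, Meg3, Snhg11 and Miat) gave a count of 4 with each alternative except the filter at a mean of 100, which left 3 of them to test and called those 3. With a library left out, the log2 fold change of Malat1 ran from −2.04 to −1.65, that of Meg3 from −1.77 to −1.36, that of Snhg11 from −1.92 to −1.62 and that of Miat from −2.81 to −2.21, while a pseudocount of 5 gave −1.77 for Miat. In the aging and overexpression experiments 0 of the 9 were called with every alternative. Of 402 recomputed log2 fold changes of the 9 RNAs, 9 moved by more than the SD between libraries and 0 called values changed sign. Other annotated long noncoding RNAs called in the knockdown experiment numbered 4 (2 higher and 2 lower), 4 with no filter (0 higher and 4 lower of 374 tested), and 2 to 4 with a library left out. With age DESeq2 called 2 of them where limma called 0. Libraries with the same replicate number did not deviate together (correlations from −0.05 to 0.02), so no pairing by number was seen. The check cannot exclude one. The deviations of the 2 aged libraries mirror each other by construction, and the knockdown libraries are shallow. With the replicate block the knockdown fit still called 4 of the 9 RNAs and called 1 of the other long noncoding RNAs, and the aging fit called 0 of either. No paired analysis was possible for the overexpression experiment because its replicate numbers only follow the order of the samples. The mean correlation of the 36 pairs was 0.33, from 0.22 to 0.37 with a library left out and from 0.27 to 0.35 with the other alternatives. Depth limits the knockdown values, where 5 of the 9 RNAs could not be tested.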
